A study of Mus musculus with 6 samples.

Results

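A set of 9 genes for the potassium channels that repolarise the cardiomyocyte was examined for acetylation of histone H3 at lysine 27 (H3K27ac), a mark of active promoters and enhancers. The 9 members were taken by name, out of 21887 protein-coding genes on chromosomes 1 to 19, X and Y listed by RefSeq for GRCm38.p6, on which mm10 rests. A peak was assigned to a member when it touched the annotated gene or the 10 kb on either side, a stretch called the window below. The mark had been profiled by CUT&RUN, which releases and sequences the DNA next to an antibody's target, in nuclei sorted with an antibody to PCM-1, which marks cardiomyocyte nuclei. The sorted nuclei were left ventricular, of the strain FVB at 8 to 12 weeks of age. There were 3 wild-type libraries (WT) and 3 of the genotype given as HOM with a CRISPR deletion named Nppa-Nppb, after the genes of the atrial and B-type natriuretic peptides, and the titles of all 6 carry the code Nppa-bdKO. The labels also name Myh6-MerCreMer, nTnG and Sun1/sfGFP mice bred on FVB/N, without tying those alleles to a library. Neither the ends of the deletion nor the number of founder lines is stated. Nor is it stated whether each library is a mouse of its own, so every p-value measures only the spread between these libraries, which may be technical.

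A cardiomyocyte ends each action potential by letting potassium out through several channels in turn. The fast transient outward current, Ito,f, brings early repolarisation and is carried by Kv4.2 (Kcnd2) and Kv4.3 (Kcnd3) with the accessory protein KChIP2 (Kcnip2). The ultra-rapid current IKur runs through Kv1.5 (Kcna5), the slow delayed rectifier IKs through Kv7.1 (Kcnq1) with its subunit minK (Kcne1), and the rapid delayed rectifier IKr through ERG1 (Kcnh2). The inward rectifier IK1, carried by Kir2.1 (Kcnj2) and Kir2.2 (Kcnj12), completes repolarisation and holds the resting potential. In the adult mouse ventricle, where the action potential is brief, Ito,f and IKur are prominent in repolarisation, while IKs and IKr are small.

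The 6 peak lists differed widely in length. They held 21340 to 106605 peaks in WT, covering 6.69 to 55.7 Mb, and 1462 to 48102 in HOM, covering 0.296 to 17.2 Mb. HOM replicate 2 stood apart, with 1462 peaks of a median width of 84 bp, against 232 to 291 bp in the other lists. The interval from Nppb to Nppa (chromosome 4, positions 147985786 to 148002074) held 1, 2 and 4 peaks in WT replicates 1 to 3 and 0 in each HOM library. In HOM replicate 2 the windows of the 6 cardiomyocyte markers, Myh6 and Tnnt2 among them, also held 0 peaks, so the 0 at the Nppb to Nppa interval says nothing of the deletion in that library. In each of the other 5 libraries 6 of 6 cardiomyocyte markers had a peak. The fibroblast markers Col1a1, Col1a2, Pdgfra and Dcn had none in any library. The endothelial markers with a peak numbered 1, 3 and 3 of 4 in WT, beside 1, 0 and 1 in HOM. For pericytes and smooth muscle the numbers were 0, 2 and 3 of 4 in WT and 0 in each HOM library. For immune cells they were 1, 2 and 2 of 4 in WT, beside 2, 0 and 2 in HOM. At Tie1, Rgs5, Ptprc and Csf1r no library had a peak. Pecam1 and Spi1 had one in every library but HOM replicate 2, and Cd68 in all but WT replicate 1 and HOM replicate 2. Cdh5, Kdr, Myh11 and Acta2 had one in WT replicates 2 and 3 alone, and Pdgfrb in WT replicate 3 alone. Of the atrial markers, Myl4 had a peak in WT replicates 2 and 3 and HOM replicate 1, while Myl7 and Sln had none. The part of such nuclei in the results below was not tested. Below 80 Mb of the Y chromosome, 111 peaks were called in WT replicate 1, 112 in HOM replicate 1 and 1 to 5 in each other list, so differences between genotypes are also given within these sets. All 6 lists had some Y chromosome peaks at any position, from 0.0413% of peaks in WT replicate 3 to 1.3% in HOM replicate 2.

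In all, 7 members had a called peak in each of the libraries other than HOM replicate 2, where Kcnh2 alone had one. Kcnd2 had a peak in 3 libraries and Kcna5 in 1. The windows of 7, 8 and 9 of 9 members held a peak in WT replicates 1 to 3, against 26.2%, 50.8% and 60.4% of all protein-coding genes. In HOM replicates 1 to 3 the counts were 8, 1 and 7 of 9, against 40.6%, 2.44% and 20.5%. With a peak in at least 2 libraries of each genotype there were 7 members, against 19.9% of all genes. Window size enters these counts: the median window over all genes was 37170 bp, and those of Kcnd2, Kcnd3 and Kcnq1 were longer than 99%, 96.1% and 97.7% of all. The share of the window covered by peaks, which divides by window length, had a median over the members of 2.7%, 16.9% and 22.2% in WT replicates 1 to 3. Over all protein-coding genes it was 0%, 0.131% and 0.875%. In HOM replicates 1 to 3 the members' median was 5.3%, 0% and 1.29%, beside 0% over all genes in each.

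**Figure D1:**
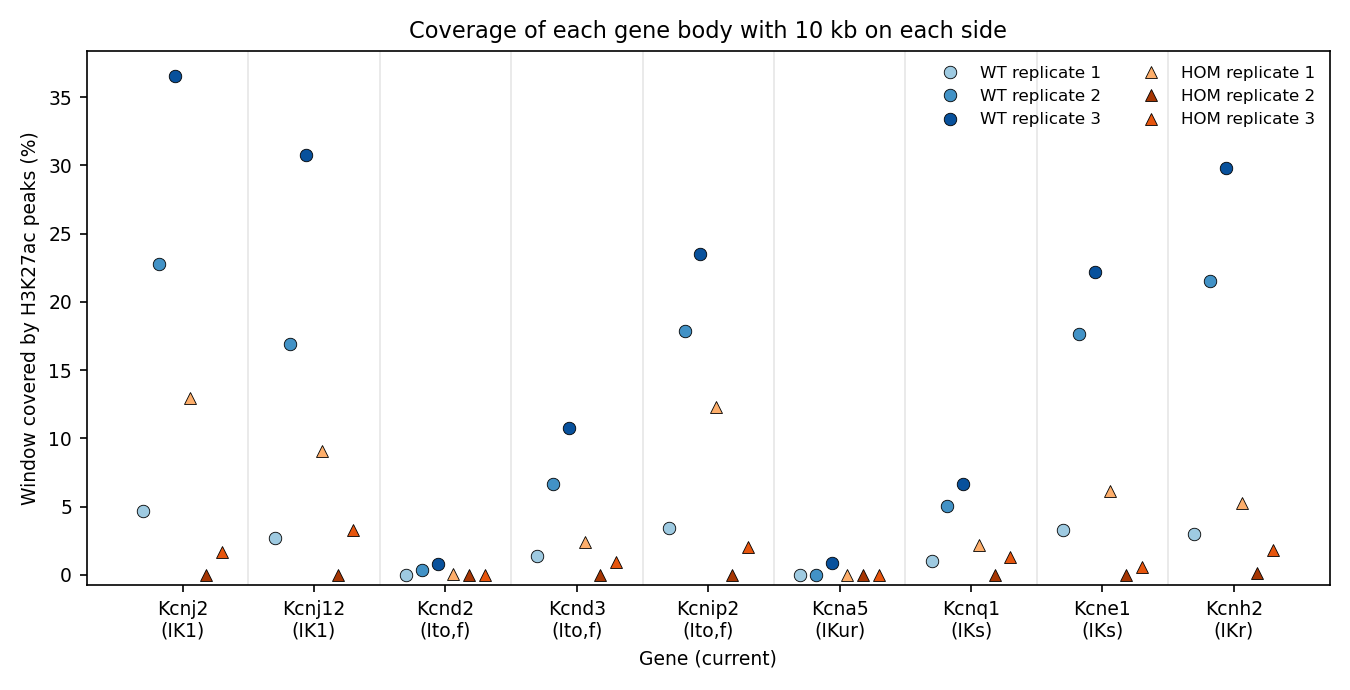
Percent of each window (gene with 10 kb on each side) covered by H3K27ac peaks, with 1 point per library, circles for WT and triangles for HOM. Kcnj2 reaches 36.6% in WT replicate 3, Kcnd3 and Kcnq1 stay at or below 10.8%, and Kcnd2 and Kcna5 lie below 1% in all 6 libraries.

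The IK1 gene Kcnj2 was the most densely covered member in 4 of the 5 libraries other than HOM replicate 2. Kcnj2 lies on chromosome 11 from position 111066164 to 111076825, with no other gene of the RefSeq table in its window. It had 3, 14 and 16 peaks in WT replicates 1 to 3, covering 4.67%, 22.8% and 36.6% of the window. In HOM replicates 1 to 3 it had 9, 0 and 2 peaks, covering 13%, 0% and 1.67%. The longest lists thus gave the highest coverage, and the genotypes overlapped. Peak widths ran from 162 to 4712 bp. A region from 111066212 to 111070923 was called in all 5 of these libraries, as 3, 4 and 1 peaks in WT and as 7 and 1 peaks in HOM replicates 1 and 3. It begins 48 bp above the lower end of the gene, which is the start site of its promoter entry, and takes in the lower part of the gene. The highest-ranking peak of Kcnj2 lay there in each of these libraries. By the authors' fold enrichment it ranked 1819 of 21340, 822 of 72362 and 3384 of 106605 in WT replicates 1 to 3, and 1800 of 48102 and 2596 of 15184 in HOM replicates 1 and 3. A further recurrent region, from 111085916 to 111089555, lies 9.09 to 12.7 kb above the gene, in no annotated gene, and its upper part is outside the window.

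The promoter of Kcnj2 is shown because the mark sat on both sides of its start site. The sequence is the RefSeq entry of GRCm38.p6, a C57BL/6J reference, whereas the mice were FVB. It runs 5′ to 3′ over 250 bases before and 50 after the start site at chr11:111065914-111066213, plus strand. In this and the other promoters printed here, capitals mark matches on either strand to any of 6 motifs. GATA factors were searched as AGATAA. For TEAD factors the letters were CATTCC. The motif of estrogen-related receptors was AAGGTCA. Krüppel-like factors were represented by CACCC. The letters for NKX2-5 were AAGTG. The TATA box was TATAAA. A further motif, the E-box CANNTG, is left in lower case.
Kcnj2: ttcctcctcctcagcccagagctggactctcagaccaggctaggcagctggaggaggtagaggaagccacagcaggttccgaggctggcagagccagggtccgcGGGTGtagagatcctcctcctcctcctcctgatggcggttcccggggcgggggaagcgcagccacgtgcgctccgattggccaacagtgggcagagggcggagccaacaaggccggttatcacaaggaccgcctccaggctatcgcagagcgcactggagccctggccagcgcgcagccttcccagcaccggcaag
Peaks covered 245 and 195 of these 300 bases in WT replicates 2 and 3 and 0 in the other libraries. Within 1 kb of the start site they covered 0, 1454 and 1806 bp in WT and 372, 0 and 341 bp in HOM.

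Kcnj12, the other IK1 gene, spans positions 61022564 to 61073269 of chromosome 11, again without another annotated gene in the window. It had 6, 25 and 32 peaks in WT replicates 1 to 3 and 20, 0 and 7 in HOM replicates 1 to 3. They covered 2.7%, 16.9% and 30.8% of the window in WT and 9.06%, 0% and 3.26% in HOM. HOM replicate 3 thus lay above WT replicate 1. A single recurrent region, from 61022810 to 61029737, held 5469 of the 11948 bp covered in WT replicate 2 and all 2306 bp covered in HOM replicate 3. It starts 0.246 kb above the lower end of the gene and is 6928 bp wide. The peak of highest fold in WT replicates 2 and 3 and HOM replicate 1 was elsewhere, below the gene. It spanned 61017194 to 61017639, 61017257 to 61017925 and 61017249 to 61017637, and ranked 1528 of 72362, 811 of 106605 and 1800 of 48102. WT replicate 1 and HOM replicate 3 had no peak there. The RefSeq promoter entry of Kcnj12 lies inside the gene, at chr11:61065554-61065853, plus strand, and peaks covered 69 of its 300 bases in WT replicate 3 and 0 in the other libraries.

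Of the Ito,f genes, Kcnd3 and Kcnip2 were marked in 5 libraries and Kcnd2 only sparsely. Kcnd2 is the longest member, from position 21215346 to 21729805 of chromosome 6 (514460 bp), and holds the long noncoding gene Gm52855. It had 0, 7 and 11 peaks in WT replicates 1 to 3 and 2, 0 and 0 in HOM replicates 1 to 3. Coverage was 0%, 0.365% and 0.776% of the window in WT and 0.0743%, 0% and 0% in HOM, below the median of all genes in WT replicate 3 (0.875%) and above it in WT replicate 2 (0.131%). No region of Kcnd2 was called in 4 or more libraries. In WT replicates 2 and 3 a peak lay on each side of the start site. These spanned 21214231 to 21214584 and 21215382 to 21215672 in WT replicate 2, and 21214136 to 21214844 and 21215425 to 21216090 in WT replicate 3. In HOM replicate 1 both peaks lay about 95 kb into the gene, between 21310359 and 21311435, where WT replicate 3 also had 3. The best rank of a Kcnd2 peak was 12844 of 72362 for WT replicate 2, 15448 of 106605 for WT replicate 3 and 15434 of 48102 for HOM replicate 1.

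Kcnd3, the gene of the other Kv4 pore, had many peaks spread along its length. It lies on chromosome 3 from position 105451890 to 105674002 (222113 bp), with the long noncoding gene Kcnd3os over its lower end and the protein-coding Ddx20 in the upper flank, where no library had a peak. It had 12, 37 and 54 peaks in WT replicates 1 to 3 and 16, 0 and 6 in HOM replicates 1 to 3. They covered 1.38%, 6.64% and 10.8% of the window in WT and 2.41%, 0% and 0.919% in HOM. In each library with a peak at Kcnd3, its coverage was above that of Kcnd2, by 4.18 ± 3.87 percentage points (SD, n = 5 libraries). In all, 4 regions were called in all 5 libraries. They lie at the lower end (105450626 to 105452748), 68.6 to 70.8 kb into the gene (105520456 to 105522698), 86.4 to 88.1 kb into it (105538333 to 105540021) and 12.3 to 14.3 kb below its upper end (105659737 to 105661726). The region at 68.6 kb held the highest-ranking Kcnd3 peak of WT replicate 2 (822 of 72362) and of HOM replicate 3 (391 of 15184). In WT replicates 1 and 3 the highest-ranking peak was in the region near the upper end, at 1094 of 21340 and 2816 of 106605. In HOM replicate 1 it was a 281 bp peak from 105621685 to 105621965, at 867 of 48102. In the 5 libraries 15% to 20.9% of the covered length lay at or below 40 kb from the lower end, the lower flank included. That part takes up a similar share of the 242113 bp window, so coverage was not crowded toward the lower end.

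The promoters of the Kv4 pore genes are shown side by side because peaks covered the Kcnd3 start site and flanked that of Kcnd2. They lie at chr6:21215096-21215395, plus strand, and at chr3:105451640-105451939, plus strand, with the same layout and capitals as above.
Kcnd2: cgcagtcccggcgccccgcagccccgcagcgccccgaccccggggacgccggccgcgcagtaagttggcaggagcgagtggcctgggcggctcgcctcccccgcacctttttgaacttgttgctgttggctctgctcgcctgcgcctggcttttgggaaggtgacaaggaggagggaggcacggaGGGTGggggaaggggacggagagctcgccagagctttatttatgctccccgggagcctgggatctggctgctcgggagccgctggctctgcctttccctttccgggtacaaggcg
Kcnd3: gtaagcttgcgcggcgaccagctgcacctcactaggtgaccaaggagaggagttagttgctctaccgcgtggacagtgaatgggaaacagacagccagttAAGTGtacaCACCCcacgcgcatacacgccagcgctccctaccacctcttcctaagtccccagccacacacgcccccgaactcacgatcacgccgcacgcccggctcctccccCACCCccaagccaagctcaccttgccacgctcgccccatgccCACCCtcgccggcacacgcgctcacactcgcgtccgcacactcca
All 300 bases of the Kcnd3 promoter were inside a peak in WT replicates 2 and 3, and 0 in the other libraries. Of the Kcnd2 promoter, 14 bases were covered in WT replicate 2 and 0 in the others. Within 1 kb of the start site, peaks covered 177, 1139 and 1878 bp at Kcnd3 in WT and 449, 0 and 334 bp in HOM. The values at Kcnd2 were 0, 530 and 1165 bp in WT and 0 in each HOM library.

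Kcnip2, whose product KChIP2 brings Kv4 channels to the membrane, carried its leading peaks outside the gene. The gene spans positions 45792346 to 45816422 of chromosome 19, with the protein-coding Oga in the lower flank and Armh3 starting in the upper flank at 45817362. It had 4, 14 and 11 peaks in WT replicates 1 to 3 and 12, 0 and 3 in HOM replicates 1 to 3. Coverage was 3.42%, 17.9% and 23.5% of the window in WT and 12.3%, 0% and 2.01% in HOM. HOM replicate 1 thus lay between WT replicates 1 and 2. In all 5 libraries the window's peak of highest fold was in a region from 45823081 to 45828665, which starts 6.66 kb above the upper end of Kcnip2 and lies within Armh3. The rank of that peak was 1819 of 21340, 194 of 72362 and 621 of 106605 in WT replicates 1 to 3, and 867 of 48102 and 2596 of 15184 in HOM replicates 1 and 3. The window ends at 45826422, so the upper part of the region is outside it. In WT replicate 1 and HOM replicate 1 the region's strongest peak lay beyond the window. Whether this region acts on Kcnip2 or on Armh3 cannot be read from peak positions. The other region of 5 libraries, from 45813741 to 45817401, covers the Kcnip2 start site and reaches the lower end of Armh3. It held 579, 2255 and 3661 bp in WT, with 1942 and 171 bp in HOM replicates 1 and 3.

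The Kcnip2 promoter is shown because peaks of both genotypes covered it. It lies at chr19:45816014-45816313, minus strand, and is written in the direction of transcription.
Kcnip2: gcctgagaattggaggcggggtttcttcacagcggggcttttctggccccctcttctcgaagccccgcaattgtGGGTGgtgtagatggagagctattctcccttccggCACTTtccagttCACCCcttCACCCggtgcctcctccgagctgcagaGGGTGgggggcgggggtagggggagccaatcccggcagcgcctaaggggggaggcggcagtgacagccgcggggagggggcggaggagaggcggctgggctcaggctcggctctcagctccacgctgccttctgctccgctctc
Peaks covered 76, 83 and 300 of its 300 bases in WT replicates 1 to 3 and 300, 0 and 0 in HOM replicates 1 to 3. Kcnip2 was thus the only member whose promoter entry was covered in full in a HOM library, and the only one covered at all in WT replicate 1.

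Kcna5, the IKur gene, had a single peak over all 6 libraries together. The gene is short, from position 126532551 to 126535555 of chromosome 6 (3005 bp), and its window is 23005 bp long with no other annotated gene. The peak was in WT replicate 3, from 126536621 to 126536816, 196 bp wide, starting 4.07 kb above the lower end and so beyond the upper end, which is the start site of its promoter entry. It ranked 48586 of 106605 by fold, near the middle of that list. Over all protein-coding genes, 37.9% of windows had no peak in any library. The promoter is shown as the counterpart of those above. It lies at chr6:126535506-126535805, minus strand, and 0 of its bases were in a peak in any library.
Kcna5: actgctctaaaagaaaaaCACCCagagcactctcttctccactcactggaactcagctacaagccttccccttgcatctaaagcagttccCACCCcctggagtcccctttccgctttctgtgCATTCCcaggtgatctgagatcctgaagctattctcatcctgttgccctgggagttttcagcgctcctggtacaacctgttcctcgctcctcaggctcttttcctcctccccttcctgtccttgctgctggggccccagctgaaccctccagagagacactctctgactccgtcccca

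**Figure D2:**
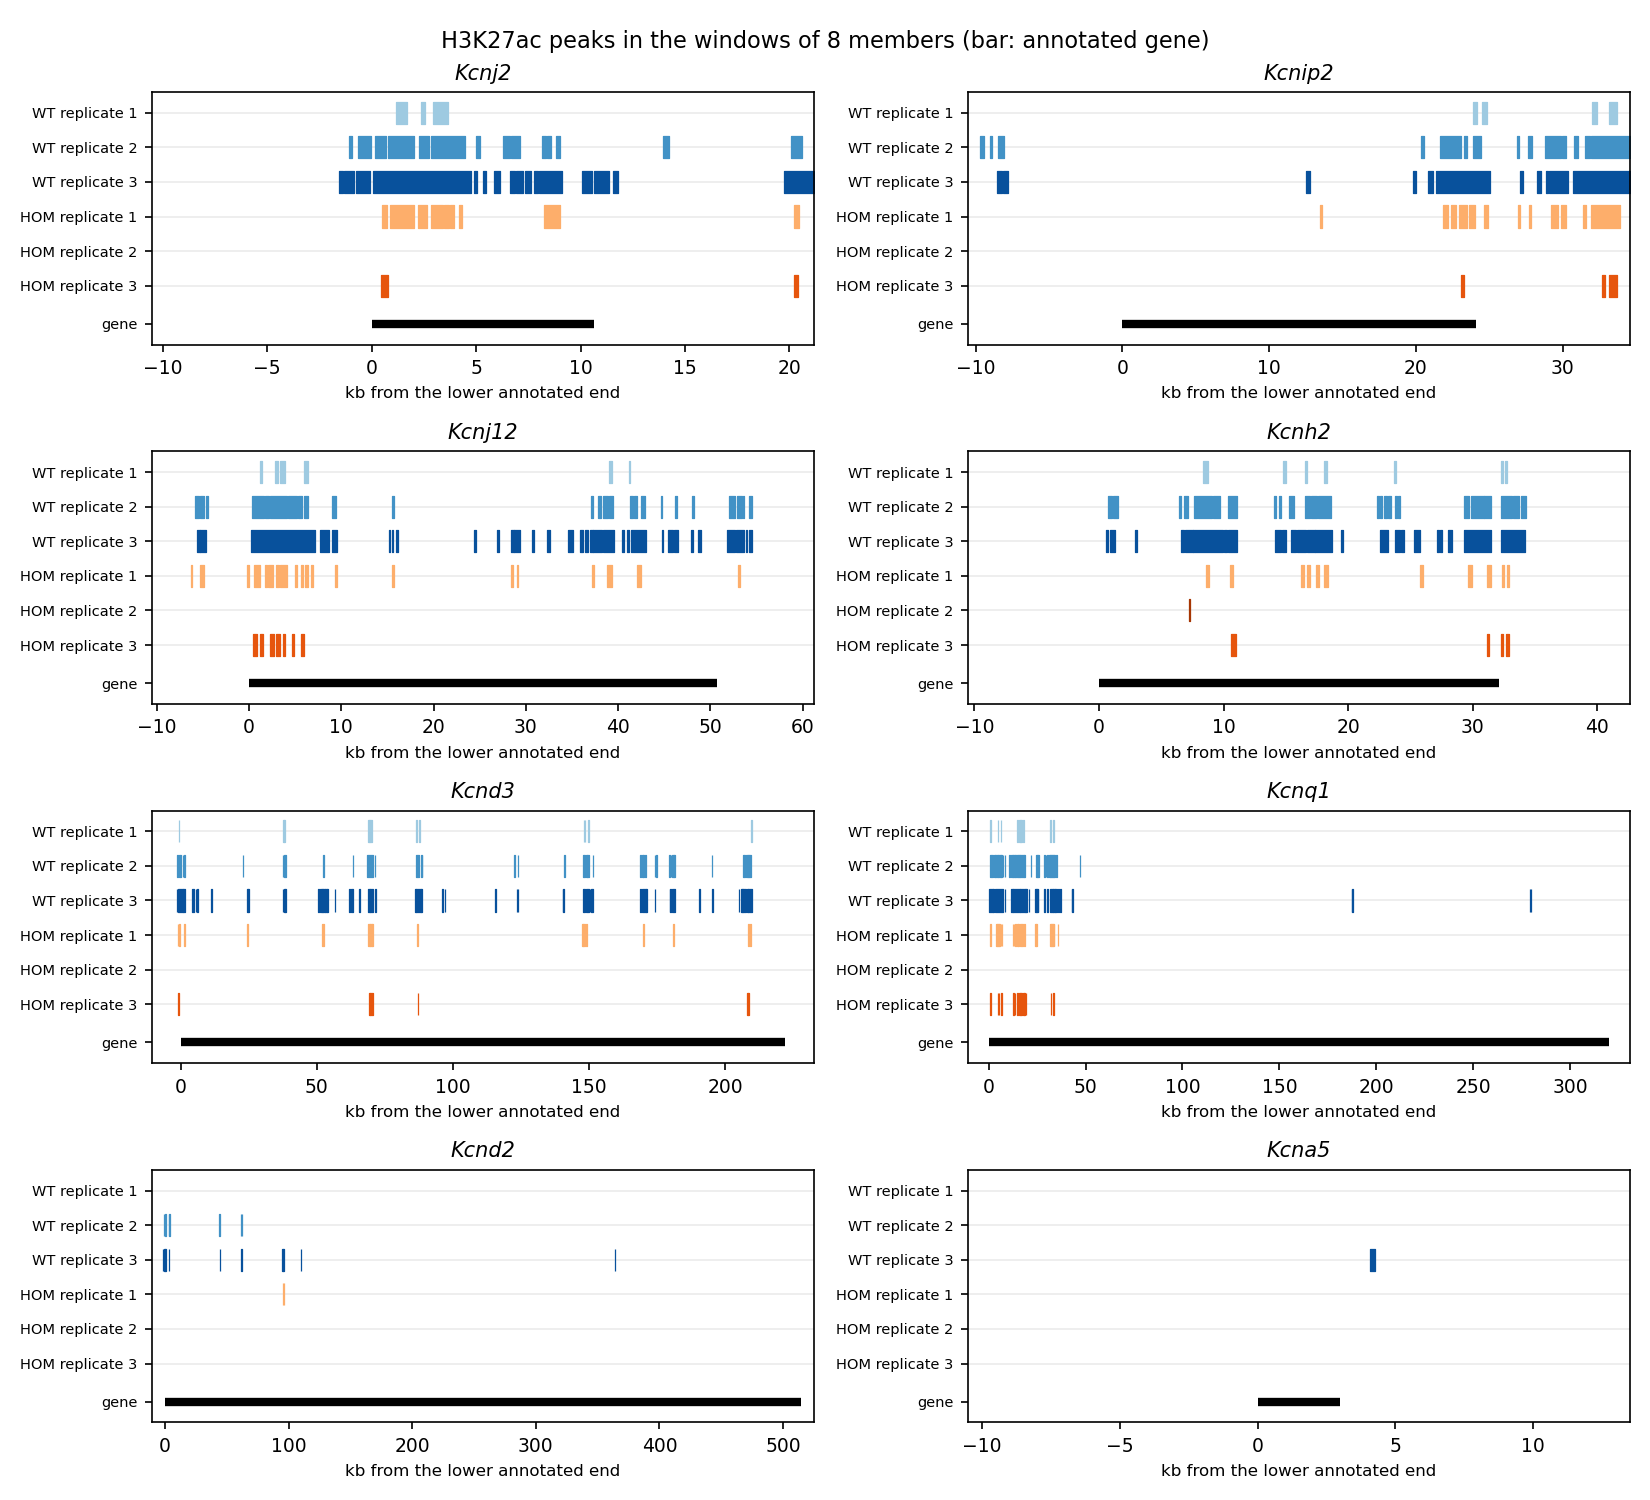
Positions of H3K27ac peaks (coloured blocks, 1 row per library) in the windows of 8 members, in kb from the lower annotated end. The gene is a black bar, and peaks are cut only at the panel's edge, slightly beyond the window's ends. Kcnq1 peaks crowd into the lower 40 kb, Kcnd3 peaks spread over the gene, the leading Kcnip2 peaks lie above it, and Kcna5 has 1 peak in WT replicate 3.

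Among 7 members with a RefSeq promoter entry, which did not include Kcnq1 and Kcne1, CACCC was found in all 7 promoters. It is also in 57.5% of all 32851 promoter entries of the same 300 bp length. Kcnh2 and Kcnip2 held 4 matches each and Kcnd3 held 3. AAGTG was found in the Kcnd3 and Kcnip2 promoters and in 46.4% of all. CATTCC was in the Kcna5 promoter and in 14.7% of all. CANNTG was in 5 of the 7 and in 72.3% of all. The motifs of GATA factors, of estrogen-related receptors and of the TATA box, present in 11.2%, 4.72% and 13.6% of all, were in none of the 7. The 27 matches shared no base with each other. GC content ran from 55% in Kcna5 to 74.3% in Kcnh2, beside a median of 52.7% over all entries. The sparsely marked Kcnd2 had 68.7%, close to the 66.7% of Kcnj2, 67% of Kcnip2 and 64% of Kcnd3.

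Kcnq1, the pore gene of IKs, had some of the highest-ranking peaks of all members, crowded into a small part of a long gene. It spans positions 143106877 to 143427050 of chromosome 7 (320174 bp) and overlaps the long noncoding genes Gm28821, Kcnq1ot1 and 4933417O13Rik. It had 10, 31 and 28 peaks in WT replicates 1 to 3 and 24, 0 and 15 in HOM replicates 1 to 3, all of them on the gene body. They covered 0.989%, 5.03% and 6.67% of the window in WT and 2.19%, 0% and 1.29% in HOM. Of the covered length, 100%, 98.9% and 94.9% in WT, and 100% in HOM replicates 1 and 3, lay at or below 40 kb from the lower end. In this part, 6 regions were called in all 5 libraries, more than at any other member. The outermost of them run from 143107286 to 143109361 and from 143140158 to 143141230, the latter reaching over the upper end of Gm28821. Between them lie regions from 143110056 to 143114356, 143119676 to 143123063, 143123188 to 143125868 and 143138292 to 143140054. The region at 143110056 held 573, 3546 and 4271 bp in WT replicates 1 to 3, with 2042 and 743 bp in HOM replicates 1 and 3. The region at 143119676 held 707, 2903 and 3365 bp in WT, with 1467 and 1508 bp in HOM replicates 1 and 3. The region at 143123188 held 1313, 2594 and 2584 bp in WT, with 1563 and 1173 bp in HOM replicates 1 and 3. All peaks of Kcnq1 covered 3363, 17100 and 22688 bp in WT, with 7456 and 4383 bp in HOM replicates 1 and 3. The regions at 143119676 and 143123188 together thus held most of the covered bp in WT replicate 1 and HOM replicate 3, and less in the other libraries.

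In each of the 5 libraries a highest-ranking Kcnq1 peak lay 12.8 to 19 kb into the gene. The peak from 143122545 to 143123053 had a fold of 12.5 and ranked 152 of 72362 in WT replicate 2. The one from 143119699 to 143123063 had a fold of 14.8 and ranked 621 of 106605 in WT replicate 3. In HOM replicate 1 a peak at 32.9 kb shared the best rank with one at 15.4 kb. In WT replicate 1 and HOM replicates 1 and 3 the best ranks were 1819 of 21340, 1800 of 48102 and 2596 of 15184. The part of the gene under Kcnq1ot1, the noncoding RNA of an imprinted domain, held 2 peaks in WT replicate 3 and 0 in the other libraries.

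Kcne1, the gene of the IKs subunit minK, lies on chromosome 16 from position 92346001 to 92359468 and overlaps the long noncoding gene Gm30163, on which no peak lay. It had 4, 14 and 9 peaks in WT replicates 1 to 3 and 6, 0 and 1 in HOM replicates 1 to 3. They covered 3.28%, 17.6% and 22.2% of the window in WT and 6.18%, 0% and 0.598% in HOM. In its region of 5 libraries, from 92345783 to 92347528 at the lower end of the gene, peaks covered 634, 1325 and 1746 bp in WT, with 721 and 200 bp in HOM replicates 1 and 3. The lower flank held further peaks. The highest-ranking peaks of WT replicates 1 and 3 were there, from 92340505 to 92340753 at 4654 of 21340 and from 92344432 to 92345382 at 1585 of 106605. The best ranks in the other libraries were 4751 of 72362 in WT replicate 2, and 1258 of 48102 and 4440 of 15184 in HOM replicates 1 and 3.

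Kcnh2, the IKr gene, was the only member with a peak in HOM replicate 2. It lies on chromosome 5 from position 24319589 to 24351684, and the long noncoding gene Gm15589 overlaps its lower part. It had 7, 25 and 24 peaks in WT replicates 1 to 3 and 11, 1 and 4 in HOM replicates 1 to 3. Coverage was 2.97%, 21.5% and 29.8% of the window in WT and 5.3%, 0.138% and 1.83% in HOM. The peak of HOM replicate 2, from 24326805 to 24326876, was 72 bp wide and ranked 1394 of 1462, near the foot of its list. A region just above the upper end of the gene, from 24351848 to 24353837, was called in the other 5 libraries, and 4 more regions of Kcnh2 were called in 4 libraries. Best ranks were 2920 of 21340, 7997 of 72362 and 4030 of 106605 in WT, and 5459 of 48102 and 4440 of 15184 in HOM replicates 1 and 3. The RefSeq promoter entry, at chr5:24329542-24329841, minus strand, lies inside the gene, and peaks covered 242 of its 300 bases in WT replicate 3 and 0 in the others.

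Ordered by covered share of the window within each of the 5 libraries and averaged, the members ran from Kcnj2 (mean place 1.6) over Kcnip2 (2.6), Kcnj12 (3.2), Kcnh2 (3.4) and Kcne1 (4.6) to Kcnd3 (6), Kcnq1 (6.6), Kcnd2 (8.2) and Kcna5 (8.4). Most neighbours in this order did not differ beyond the spread between libraries. Kcnj2 exceeded Kcnip2 by 3.91 ± 5.48 percentage points, Kcnip2 and Kcnj12 differed by -0.714 ± 3.98, and Kcnd3 exceeded Kcnq1 by 1.19 ± 1.77 (SD of the difference, n = 5 libraries each). Kcne1 exceeded Kcnd3 by 5.56 ± 5.38 and Kcnq1 exceeded Kcnd2 by 2.99 ± 2.17 (SD, n = 5 each), larger than the spread, the former in 4 and the latter in 5 libraries. These are descriptions without a test, and the libraries' depth sets their scale. The share also divides by window length, and Kcnd2, Kcnq1 and Kcnd3 have the longest windows. In bp, peaks of WT replicate 3 covered 26026 at Kcnd3 and 22688 at Kcnq1, beside 11215 at Kcnj2 and 4148 at Kcnd2.

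The members were also grouped by current. Over the joint windows of its genes, IK1 had 3.3%, 18.7% and 32.5% covered in WT replicates 1 to 3 and 10.2%, 0% and 2.78% in HOM replicates 1 to 3. IKr had 2.97%, 21.5% and 29.8% in WT and 5.3%, 0.138% and 1.83% in HOM. IKs had 1.19%, 6.16% and 8.06% in WT and 2.55%, 0% and 1.23% in HOM. Ito,f had 0.591%, 3.16% and 4.94% in WT and 1.42%, 0% and 0.379% in HOM, and IKur 0.852% in WT replicate 3 alone. The Ito,f genes include the longest window of all members. In bp, Ito,f held 34.2%, 32.8% and 34% of what the members' peaks covered in WT, with 33.9% and 27.1% in HOM replicates 1 and 3. IKs held 31.4%, 29.1% and 25.2% in WT, with 27.8% and 40% in these HOM libraries. IK1 held 23.5%, 24% and 27.6% in WT, with 30.25% and 24.6% in them. IKr held 10.9%, 14.2% and 13% in WT, with 8.05% and 8.33% in them. The currents pool unequal numbers of genes. Peak coverage is not a level of transcript or of current, and RNA was not measured in these libraries.

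Within the lists, members' peaks were not uniformly strong. A percentile here is the place of a peak's fold among all peaks of its own list, ties taking the mean rank, so that all peaks together have a median of about 50. The 167 and 186 peaks in WT replicates 2 and 3 and the 100 in HOM replicate 1 had median percentiles of 57.6, 59 and 61.4. The 46 in WT replicate 1 and the 38 in HOM replicate 3 had 35.1 and 40.4. Above the 90th percentile stood 13.2%, 17.2% and 14% of the members' peaks in WT replicates 2 and 3 and HOM replicate 1, beside 11%, 10.4% and 11.3% of all peaks in those lists. In WT replicate 1 and HOM replicate 3 the members' shares were lower than those of the lists, at 2.17% and 2.63% beside 8.52% and 9.68%, or 1 peak each, a peak of Kcnd3 in both. Between 79.6% and 84.2% of the members' peaks touched a gene body in these 5 libraries.

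**Figure D3:**
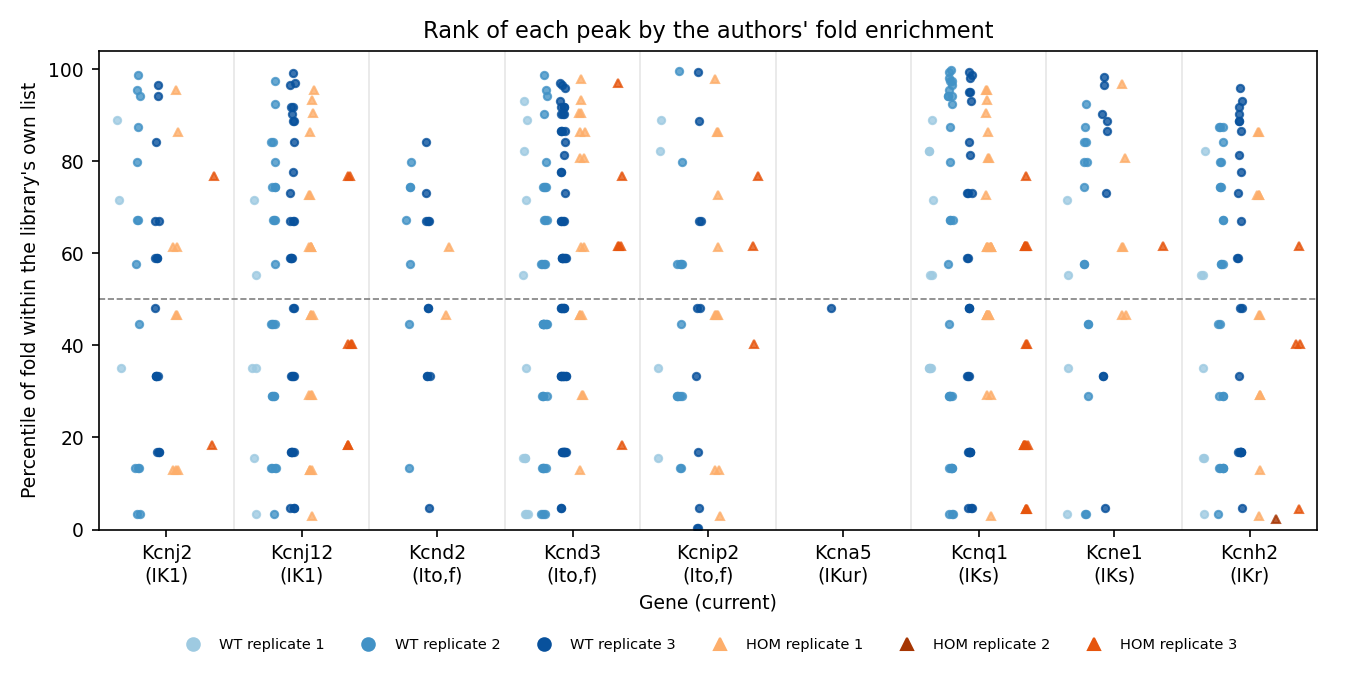
Percentile of the authors' fold enrichment of each member peak within its own list, with 1 point per peak and the dashed line at 50. Kcnq1 and Kcnip2 reach above 99 in WT replicates 2 and 3, and the single Kcnh2 peak of HOM replicate 2 stands at 2.39.

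WT and HOM libraries were compared by the bp covered in the window per Mb covered in the whole list. This scales for the total covered but does not remove all differences due to list length. The mean was lower in HOM for 9 of 9 members, as it was for 11817 of the 13591 protein-coding genes with a peak in any library, so the members shared the direction of most genes. The median difference, HOM minus WT, was -57.8 bp per Mb over the members and -9.32 over all tested genes. It is not divided by the coverage in WT, which was higher at most members than at most genes, so these medians do not compare relative change. Exact permutation of 3 and 3 libraries gives a two-sided p of at least 0.1, so no gene could pass 0.05. Over the 13591 genes, Benjamini-Hochberg adjusted values began at 0.84, with 0 genes at an unadjusted p under 0.05. HOM replicate 2 weighs on all of this, with 0 bp at 8 of 9 members. Without it, the mean was lower in HOM for 6 members and higher for Kcnj12, Kcnq1 and Kcnip2, and the members' median difference was -33.8. With those 5 libraries cut to equal list length, the mean was lower in HOM for 4 members and higher for the same 3. The members' median difference was then 0.

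Kcne1 was the only member whose genotypes did not overlap. Its values in WT replicates 1 to 3 were 164, 187 and 134 bp per Mb. Those in HOM replicates 1 to 3 were 120, 0 and 44. WT averaged 161.3 ± 26.5 and HOM 54.7 ± 60.8 (SD, n = 3 each). HOM minus WT was -106.6 (exact permutation p = 0.1, 0.84 after Benjamini-Hochberg adjustment). Such a pattern, all WT above all HOM, held for 1 of 9 members and for 8.56% of all tested genes, so the members' count is near the background. The reverse pattern held for 0 of 9 members and 0.265% of genes. Without HOM replicate 2 the difference at Kcne1 was -79.2. The pattern did not hold on bp without scaling, on peak numbers or with flanks of 50 kb, where the difference stayed negative.

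The remaining members overlapped between genotypes. Kcnd3 values were 500, 508 and 468 bp per Mb in WT, beside 339, 0 and 490 in HOM, or 491.9 ± 21.5 and 276.5 ± 251 on average (SD, n = 3 each). The difference was -215.4 (exact permutation p = 0.2). Without HOM replicate 2 it was -77.2. WT libraries of Kcnd3 lay close together, and HOM replicate 3 fell among them. Kcnh2 had 232, 355 and 279 in WT and 161, 244 and 210 in HOM, a difference of -83.7 (exact permutation p = 0.2). The HOM replicate 2 value of Kcnh2 rests on its 72 bp peak, and without that library WT and HOM did not overlap, as for 8.85% of genes. Kcnj2 had 214, 221 and 202 in WT and 231, 0 and 113 in HOM, a difference of -97.7 (exact permutation p = 0.4), which was -40.4 without HOM replicate 2. HOM replicate 1 was above all WT libraries at Kcnj2.

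At Kcnq1, Kcnj12 and Kcnip2 the direction of the difference turned on HOM replicate 2. WT values of Kcnq1 were 503, 541 and 408 bp per Mb and HOM values 434, 0 and 965, where HOM replicate 3 was the highest of the 6 libraries. Its difference was -17.5 (exact permutation p = 1), and 215.6 without HOM replicate 2. Kcnj12 had 285, 378 and 391 in WT and 373, 0 and 508 in HOM, a difference of -57.8 (exact permutation p = 0.8), and 88.9 without that library. Kcnip2 had 225, 249 and 186 in WT and 315, 0 and 195 in HOM, a difference of -50.4 (exact permutation p = 0.8), and 34.6 without it. With the gene body alone, which leaves out the flanks, the Kcnip2 difference was -3.77, and with peaks taken by summit it was -8.01. Kcnd2 had 0, 61.6 and 74.5 in WT and 23.1, 0 and 0 in HOM (exact permutation p = 0.4), and Kcna5 3.52 in WT replicate 3 alone (exact permutation p = 1). At this depth, 0 bp means that no peak was called, not that acetylation was absent.

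**Figure D4:**
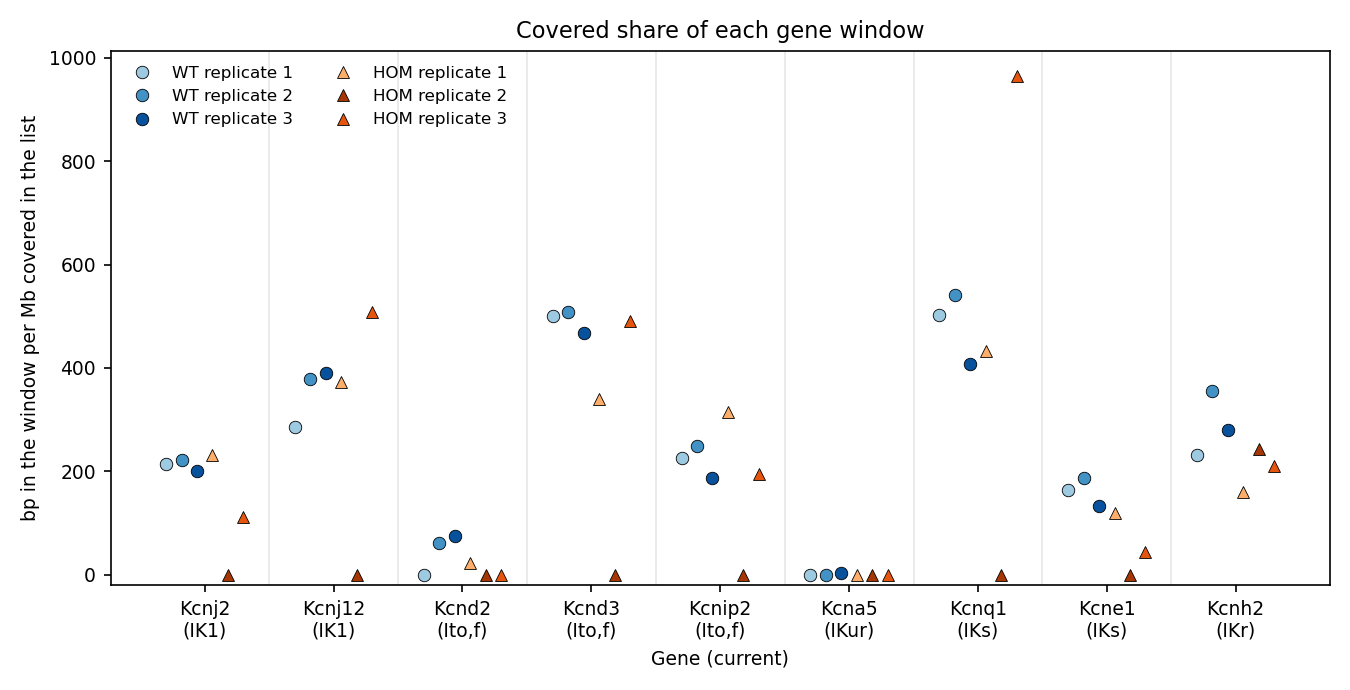
Bp covered by peaks in each window per Mb covered in the library's whole list, with 1 point per library, circles for WT and triangles for HOM. WT and HOM points are separate at Kcne1 alone, HOM replicate 2 lies at 0 for all members except Kcnh2, and HOM replicate 3 reaches 965 at Kcnq1.

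Between the 2 libraries with 111 and 112 peaks below 80 Mb of the Y chromosome, WT replicate 1 and HOM replicate 1, the difference was -43.6 bp per Mb at Kcne1, -70.9 at Kcnh2, -69.1 at Kcnq1 and -160.5 at Kcnd3. It was 16.9 at Kcnj2, 87.4 at Kcnj12, 23.1 at Kcnd2 and 89.5 at Kcnip2. Among the other 4 libraries it was -138 at Kcne1, -90.2 at Kcnh2, -242.9 at Kcnd3, -154.9 at Kcnj2, -130.4 at Kcnj12, -68.1 at Kcnd2 and -120.3 at Kcnip2, and 8.32 at Kcnq1. The direction at Kcnj2, Kcnj12, Kcnd2, Kcnip2 and Kcnq1 thus differed between the sets. Kcne1, Kcnh2 and Kcnd3 thus had the lower HOM mean in both sets. Without HOM replicate 2, WT replicates 2 and 3 against HOM replicate 3 gave -116 at Kcne1, -106.8 at Kcnh2, -98.6 at Kcnj2, -68.1 at Kcnd2 and -22.9 at Kcnip2. It gave 2.2 at Kcnd3, 123.4 at Kcnj12 and 490.8 at Kcnq1. The HOM side of that last comparison is 1 library.

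Other potassium channel genes of the heart were listed for comparison. Of 19 such genes, 4, 11 and 13 had a peak in the window in WT replicates 1 to 3 and 8, 1 and 4 in HOM replicates 1 to 3. Over all protein-coding genes the shares were 26.2%, 50.8% and 60.4% in WT and 40.6%, 2.44% and 20.5% in HOM. A peak in at least 5 libraries was found for 4 of the 19, beside 16.7% of all protein-coding genes and 7 of 9 members. The 4 were Kcnk3 (the background channel TASK-1), Kcnj3 and Kcnj5 (the pore subunits of the acetylcholine-activated current) and Kcnab1 (a Kv1 accessory subunit). Kcnk3 was the most densely covered, at 9.74%, 50.2% and 70.2% of its window in WT and 31.8%, 0.121% and 8.3% in HOM, above every member in each library but HOM replicate 2. Kcna1, Kcnk2, Kcne3, Kcne4, Kcnab2 and Kcnn3 had no peak in any library. The mean covered share was lower in HOM for 13 of the 19 and higher for 0. Over all 19 the median difference was -8.76 bp per Mb, with the 6 genes without a peak counted as 0. The -9.32 over all tested genes left such genes out. All WT libraries lay above all HOM libraries at 1 of the 19, Kcnj3, beside 8.56% of all tested genes. The tested genes all had a peak in some library, whereas 6 of the 19 had none.

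Among 14 potassium channel genes best known from neurons, those with a peak numbered 3, 7 and 9 in WT replicates 1 to 3 and 5, 1 and 3 in HOM. The shares over all protein-coding genes, again, were 26.2%, 50.8% and 60.4% in WT and 40.6%, 2.44% and 20.5% in HOM. In at least 5 libraries there were 3 of 14, Kcnh1, Kcnh3 and Kcnj6, beside 16.7% of all protein-coding genes. The mean covered share was lower in HOM for 7 of the 14 and higher for 2, Kcnh1 (104.7 bp per Mb) and Kcnh3 (49.1). Over the list the median difference was -0.584, with the 5 genes without a peak counted as 0. Kcnh1 had a single peak in each of the 6 libraries, including HOM replicate 2. It covered 0.0912%, 0.0897% and 0.0868% of the window in WT and 0.0853%, 0.0255% and 0.0859% in HOM. The HOM mean at Kcnh1 thus rests largely on HOM replicate 2, where the peak is divided by only 0.296 Mb.

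The genes whose profile was most like the mean of the 9 members, in log2 of covered bp per kb of window plus 1 over the 6 libraries, were Ttc7b, 4930402H24Rik and Nnt, at Euclidean distances of 0.336, 0.354 and 0.449. The members themselves lay at 0.495 (Kcnd3) to 9.48 (Kcna5) from that mean, so it stands for Kcnd3 and for Kcnq1 (0.963) rather than for Kcnd2 (7.94) or Kcna5. All of these profiles share the lengths of the 6 lists.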

How the data were processed

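CUT&RUN peak lists of 6 libraries were analysed. Alignment and peak calling used BWA and MACS2 on mm10, per the submitters' processing notes. Their versions are not given in the sources used here. Each list belongs to a single library, so no replicates were pooled. Columns of the deposited lists are a score, a fold ratio at the summit, −log10 p-values and −log10 q-values, which the authors' peak caller wrote. Fold was used only to rank and filter peaks within a list. The lists hold no read counts, so depth is unknown, and a peak missing from a short list is not absent signal.

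Genes came from RefSeq, GRCm38.p6, and all 9 symbols matched. Positions are 1-based, and "lower" and "upper" refer to coordinates. Peaks were united per library, coverage was cut at the window's ends, and peaks that touched in any of the 6 lists were joined into 114976 regions, of which 5.15% were called in at least 5 libraries. Covered shares were compared by exact permutation (two-sided, all 20 assignments), with Benjamini-Hochberg adjustment over 13591 genes. Named were all members, listed channel genes with a peak in at least 5 libraries (neuronal ones: 4) or in none, the 3 genes of nearest profile, and regions of at least 5 libraries. Neuronal genes without a peak are given only as counts. The peaks named outside those regions were chosen after their values were seen.

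The members and lists were chosen with earlier results of these data known. Alternatives were other scalings, windows, list lengths, overlaps and library sets. Coverage, counting and the test were tested on simulated data. Python 3.11.15, numpy 2.4.6, pandas 2.3.3 and matplotlib 3.10.9 were used.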

Additional observations from a re-analysis of the deposited data

How the results depend on the processing

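Exact tests here have a smallest p of 0.1, so results are followed by direction and count alone, and where no reason is given the cause was not tested. Among the alternatives, the set of WT replicates 2 and 3 against HOM replicate 3 was added after the data were seen.

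With covered bp in place of the share, 0 members and 764 genes (5.62%) had all WT above all HOM. The reverse held for 0 genes, as the scale then follows list length. By peaks per 1000 peaks of the list, the differences at Kcnq1 and Kcnh2 turned to 0.109 and 0.0925. With the stronger peaks of each list (the upper 50% by fold), 2 members and 821 of 11489 genes (7.15%) had all WT above all HOM and 17 genes the reverse. In 5 libraries of equal list length, all WT lay above all HOM at 2 members and 615 of 8026 genes (7.66%). The reverse held for 510 genes (6.35%), and the differences of Kcnj12, Kcnq1 and Kcnip2 turned to 53.6, 103 and 29.8 bp per Mb. With the gene body alone, 2 members (Kcne1 and Kcnd3) and 773 of 10920 genes (7.08%) had all WT above all HOM. With flanks of 50 kb the pattern held for 1 member (Kcnh2) and 1753 of 16710 genes. In the main setting it held for 1 member and 1164 of 13591 genes (8.56%), so the number of genes tested also changed. With the summit rule every count stayed within 1.5 times, while the difference at Kcnip2 shrank from -50.4 to -8.01, and to -3.77 with the gene body alone.

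Leaving out 1 library each, members with a peak in at least 2 libraries of each genotype ranged from 1 to 7, falling to 1 without HOM replicate 1 or 3, since HOM replicate 2 then had to hold a peak. Members with all WT above all HOM ranged from 1 to 3, genes from 1203 to 5005 (8.85% to 36.9% of those tested). Genes in the reverse pattern ranged from 41 to 592 (0.35% to 4.36%). The 3 members came without WT replicate 1, where 36.9% of genes had all WT above all HOM. The difference ranged from -165 to 88.9 at Kcnj12, from -266.9 to 215.6 at Kcnq1 and from -122.9 to 34.6 at Kcnip2, turning without HOM replicate 2. At Kcnq1 it was also 11.1 without WT replicate 2.

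Same-numbered deviations from genotype means correlated at -0.531, -0.42 and 0.312 for numbers 1, 2 and 3. Not every library correlated best with its own number. Deviations from a genotype mean cancel out within the genotype, so such correlations must mix in sign. They cannot tell whether replicate numbers pair the libraries. With the replicate block, 2 members (Kcne1 and Kcnh2) and 1995 genes (14.7%) were higher in WT in all 3 pairs. In HOM it was 71 genes (0.522%). The smallest exact sign-flip p over 3 pairs is 0.25, and the differences themselves equal the unblocked ones. Between the libraries with 111 and 112 peaks below 80 Mb of the Y chromosome, 4 members and 3328 genes (35.8%) were higher in WT. Higher in HOM were 4 members and 5972 genes (64.2%), with differences of 16.9, 87.4, 23.1 and 89.5 at Kcnj2, Kcnj12, Kcnd2 and Kcnip2. For these 2 libraries the count of members with a peak in 2 libraries of each genotype could not be had. Among the other 4 libraries, with 1 to 5 such Y chromosome peaks, 1 member had a peak in 2 libraries of each genotype. In them 4 members and 7938 genes (58.8%) had all WT above all HOM and 208 genes (1.54%) the reverse, with 8.32 at Kcnq1. Without HOM replicate 2 these were 4 members and 8057 genes (59.7%), and 2 members and 2273 genes (16.8%) in reverse. The differences at Kcnj12, Kcnq1 and Kcnd3 were then 123.4, 490.8 and 2.2. Fewer libraries make such patterns easier to meet.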
